A study of Mus musculus with 9 samples.

Results

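Endothelial lipase and fatty acid uptake genes were followed in endothelial cells sorted from mouse liver. The 8 genes were taken by name from the deposited count table of 52636 rows, and all 8 had a row. They are Gpihbp1, Lpl, Lipg and Lipc (the lipases and the lipase anchor), Fabp4 and Fabp5 (fatty acid carriers inside the cell), Cd36 (a fatty acid translocase of the membrane) and Vldlr (a lipoprotein receptor). There were 5 libraries whose label gives a double knockout of Erg and Fli1, both transcription factors of the ETS family, and 4 control libraries labelled wild type. Both groups came from livers taken 7 days after tamoxifen, the agent used to start the deletion. The cells were alive, lacked CD45, carried CD31 and had bound a VE-cadherin antibody injected into the mice before dissociation. The sources used here do not give the mouse strain, age or sex, the Cre driver, the deleted exons or how many animals went into a library.

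Triglycerides in the blood travel in lipoproteins and are split at the inner face of capillaries by lipoprotein lipase. That enzyme (Lpl) is made mainly by muscle, fat and macrophages and is carried across the endothelium by GPIHBP1, which then holds it on the capillary surface. Endothelial lipase (Lipg) acts on phospholipids of high-density lipoproteins, and hepatic lipase (Lipc) is made by hepatocytes and acts in the sinusoids. The released fatty acids are taken up with the help of CD36 and bound inside the cell by small carriers such as FABP4 and FABP5. VLDLR binds triglyceride-rich particles and also the signalling protein reelin.

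GPIHBP1 has a strongly acidic stretch near its start, which is shown because the Gpihbp1 transcript carried the largest loss of a well-expressed member. In the coding sequence of Gpihbp1 (GENCODE M21, GRCm38 chromosome 15, plus strand), 17 of 30 codons between coding bases 55 and 144 begin with GA and so encode aspartate or glutamate, against a median of 2 over all windows of 30 codons in this gene. Capitals mark those codons.
Gpihbp1: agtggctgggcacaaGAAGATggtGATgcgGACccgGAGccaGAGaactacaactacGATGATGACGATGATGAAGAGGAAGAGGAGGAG

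Fabp4 and Fabp5 are paralogues that lie 196 kb apart on chromosome 3 and are shown because both were higher in the libraries labelled knockout. Their coding sequences (GENCODE M21, GRCm38) were identical at 245 of 396 aligned bases, 61.9%, and the longest shared run was 12 bases. The most alike stretch of 100 bases without a gap is printed with the 29 differing bases in capitals. It runs from coding base 263 to 362 in Fabp4 (minus strand) and from 269 to 368 in Fabp5 (plus strand).
Fabp4: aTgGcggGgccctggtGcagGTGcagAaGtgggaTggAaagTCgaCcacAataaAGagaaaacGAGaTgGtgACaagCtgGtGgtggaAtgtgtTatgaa
Fabp5: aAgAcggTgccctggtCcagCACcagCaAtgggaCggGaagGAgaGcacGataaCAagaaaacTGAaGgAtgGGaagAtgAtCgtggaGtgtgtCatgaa
No stretch of 50 bases of the longest protein-coding transcript of Fabp4 occurred in another annotated gene. For Fabp5, 21.1% of such windows also occurred in 5 other genes, which together held 862 counts in the libraries labelled knockout and 123 in controls, against 61926 and 8079 counts for Fabp5 itself.

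The libraries held between 26791371 and 36401682 counts when labelled knockout and between 31613059 and 34663989 as controls, so that 1 count was worth between 0.0260 and 0.0368 CPM. CPM, the usual depth-scaled count, here rests on library sizes scaled by edgeR's TMM method, and errors are SDs unless named. Erg averaged 142.9 ± 10.9 CPM in the libraries labelled knockout (n = 5) and 311.6 ± 17.8 CPM in controls (n = 4), and Fli1, whose span holds 6 other annotated genes, averaged 147.4 ± 22.5 CPM against 100.1 ± 8.01 CPM. The Fli1 transcript was thus higher, not lower, under its knockout label (log2 fold change 0.56 ± 0.12, SE, edgeR adjusted p = 0.00636). Every library labelled knockout, at 123 to 172 CPM, lay above every control, at 90.4 to 109 CPM. The text therefore keeps to "libraries labelled knockout" and each direction is relative to that label. The gene of VE-cadherin, Cdh5, averaged 2158 ± 193 CPM against 2190 ± 113 CPM, and Stab2, a scavenger receptor of liver sinusoids, 4447 ± 1292 CPM against 5412 ± 138 CPM. The 8 sinusoidal markers checked summed to between 11350 and 18530 CPM in the libraries labelled knockout and to between 27150 and 29130 CPM in controls, with 4 lower, 0 higher and 4 not past the threshold. The sinusoidal markers called lower were Stab1, Clec4g, Gpr182 and Fcgr2b. Lyve1 did not pass, with 14.5, 937, 260, 29.5 and 28.1 CPM in replicates 1 to 5 labelled knockout, against 815 to 1191 CPM in controls. Without replicate 2 labelled knockout Lyve1 was called lower (edgeR adjusted p = 0.0190). Of 6 general endothelial markers, 3 were lower, 1 of them Erg itself. Over all tested genes 14.8% were lower. Among 6 tested stellate cell and fibroblast markers only Hgf was higher, at 452 to 1089 CPM against 58.1 to 111 CPM, while the other 5 did not pass and Reln, for example, ranged from 0.368 to 0.884 CPM against 0.284 to 0.589 CPM. The erythroid, cholangiocyte and lymphocyte lists held 0 called genes. On the second principal component, which held 17.7% of the variance, 2 libraries labelled knockout stood apart, with replicate 2 at 53.2 and replicate 3 at 26.8, against -46.2 to -11.7 for replicates 1, 4 and 5. In bulk RNA, fewer cells of a kind and less transcript per cell cannot be told apart.

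Of the 8 members, 6 had enough counts for the test across all genes, and Lipc and Vldlr did not. Among the 6, Fabp4 and Fabp5 were higher, Gpihbp1 and Lipg lower, and Lpl and Cd36 not past the threshold of an adjusted p of 0.05 in edgeR's quasi-likelihood test. The threshold was passed by 29.3% of all 14583 genes tested, 14.5% upward and 14.8% downward. The CPM values of the groups did not overlap for the 4 called members, as for 13.2% of all tested genes upward and 13.8% downward. Fold changes below are those of the fit, and adjusted p-values are Benjamini-Hochberg values of the same edgeR test over all genes.

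**Figure D1:**
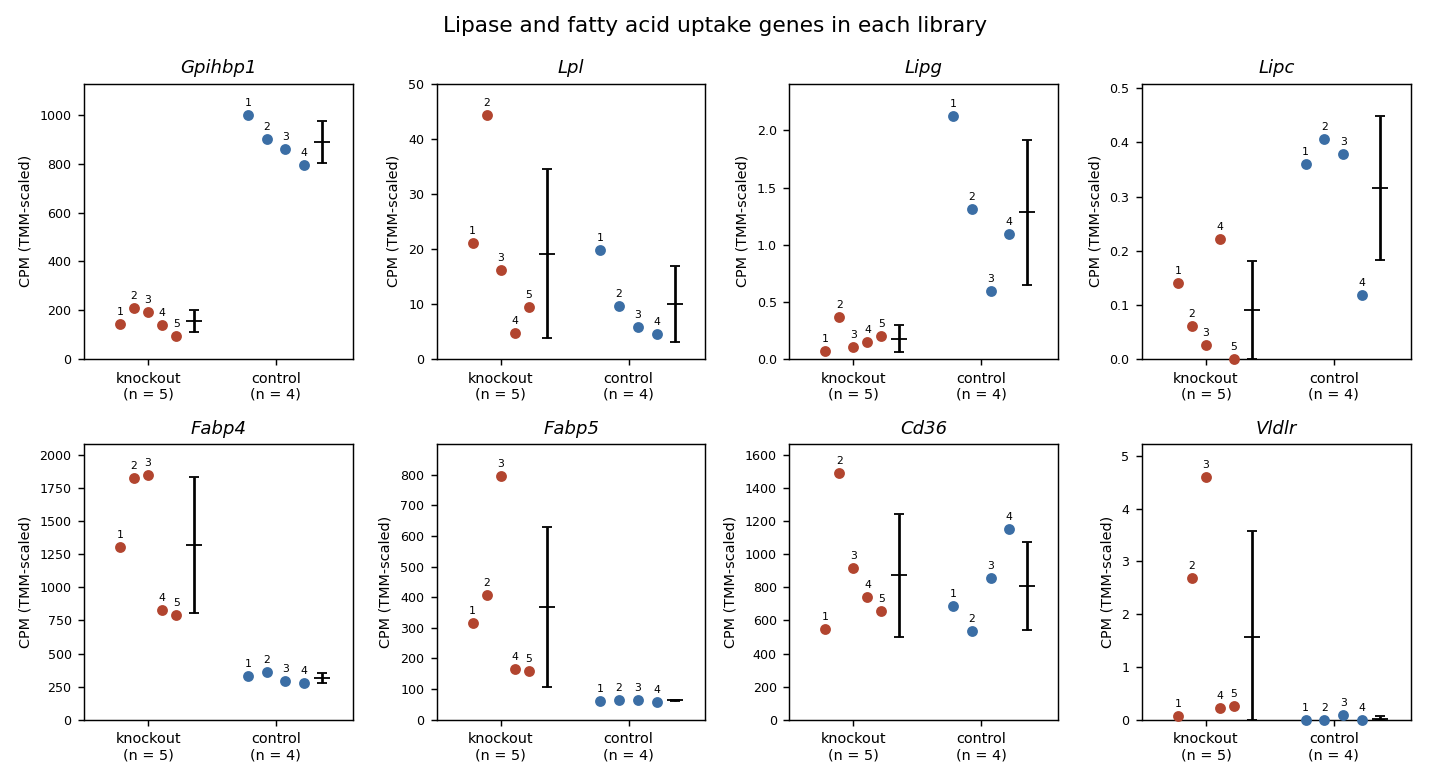
CPM of the 8 members in each library (points, numbered by replicate), with libraries labelled knockout in red on the left and controls in blue on the right. Black marks give the mean and SD (n = 5 and n = 4, drawn down to 0 at the lowest), and each panel has its own axis. The groups are apart for Gpihbp1, Lipg, Fabp4 and Fabp5 and overlap for Lpl, Lipc, Cd36 and Vldlr.

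The lipase anchor transcript fell 5.76-fold. Gpihbp1 (ENSMUSG00000022579, GRCm38 chromosome 15, 75596628 to 75599481, plus strand, overlapping no other annotated gene) had 143, 207, 191, 138 and 93.6 CPM in replicates 1 to 5 labelled knockout, against 1000, 903, 860 and 796 CPM in control replicates 1 to 4. Every library labelled knockout lay below every control, and replicates 2 and 3 were the highest of the 5. The log2 fold change was -2.53 ± 0.21 (SE, edgeR adjusted p = 5.39e-05). Per kilobase of the longest protein-coding transcript the level was 93.6 ± 27.5 RPKM in the libraries labelled knockout and 539 ± 51.8 RPKM in controls. Gpihbp1 held the highest level of the 8 members in controls and stood below both carriers and Cd36 in the libraries labelled knockout. The summed sinusoidal markers were also lower in every library labelled knockout than in any control, and their part in the Gpihbp1 values was not tested.

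Endothelial lipase fell 7.02-fold from a low level. Lipg (ENSMUSG00000053846, GRCm38 chromosome 18, 74939322 to 74961263, minus strand) had 2, 12, 4, 4 and 6 counts in the libraries labelled knockout, against 65, 42, 19 and 37 counts in controls. In scaled units these were 0.179 ± 0.118 CPM (n = 5) and 1.28 ± 0.637 CPM (n = 4). All 5 libraries labelled knockout lay below the lowest control, which was replicate 3. The log2 fold change was -2.81 ± 0.50 (SE, edgeR adjusted p = 0.00274). Lipg passed the count filter through the control libraries alone, the group where it was higher, so its being tested already leaned on that difference. In edgeR without a count filter the adjusted p was 0.001255.

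Lipoprotein lipase itself differed by less than the spread between libraries. Lpl (ENSMUSG00000015568, GRCm38 chromosome 8, 68880491 to 68907448, plus strand) had 21.2, 44.4, 16.1, 4.79 and 9.45 CPM in the libraries labelled knockout, against 19.9, 9.62, 5.86 and 4.58 CPM in controls. The control range lay almost wholly within that of the libraries labelled knockout, of which replicate 2 stood far above the others. The log2 fold change was 0.95 ± 0.64 (SE), with a 95% interval from -0.30 to 2.19 and edgeR adjusted p = 0.295. Without that replicate 2 the log2 fold change was 0.38, and without control replicate 1 it was 1.52, neither past the threshold. In the windows of 50 bases taken from its longest protein-coding transcript, 4.11% also occurred in other genes.

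Macrophages express Lpl and Cd36, and their markers varied between these libraries. The 10 macrophage and Kupffer cell markers summed to 380, 678, 125, 209 and 91.5 CPM in replicates 1 to 5 labelled knockout, against 460, 260, 120 and 277 CPM in control replicates 1 to 4, with 0 of 10 past the threshold in either direction. The Kupffer cell lectin Clec4f ranged from 15.2 to 113 CPM in the libraries labelled knockout and from 5.58 to 87.6 CPM in controls, so no library was free of it. In each group the library highest in Lpl was also the one highest in these markers. Replicate 1 labelled knockout was second of its group in both, at 21.2 and 380 CPM. Below these libraries the order did not hold. Control replicate 4, second of the controls in the markers at 277 CPM, was the lowest control in Lpl, at 4.58 CPM. Replicate 4 labelled knockout, at 209 CPM of the markers, was the lowest of its group in Lpl, at 4.79 CPM. The part of macrophage RNA in the Lpl values was not tested.

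**Figure D2:**
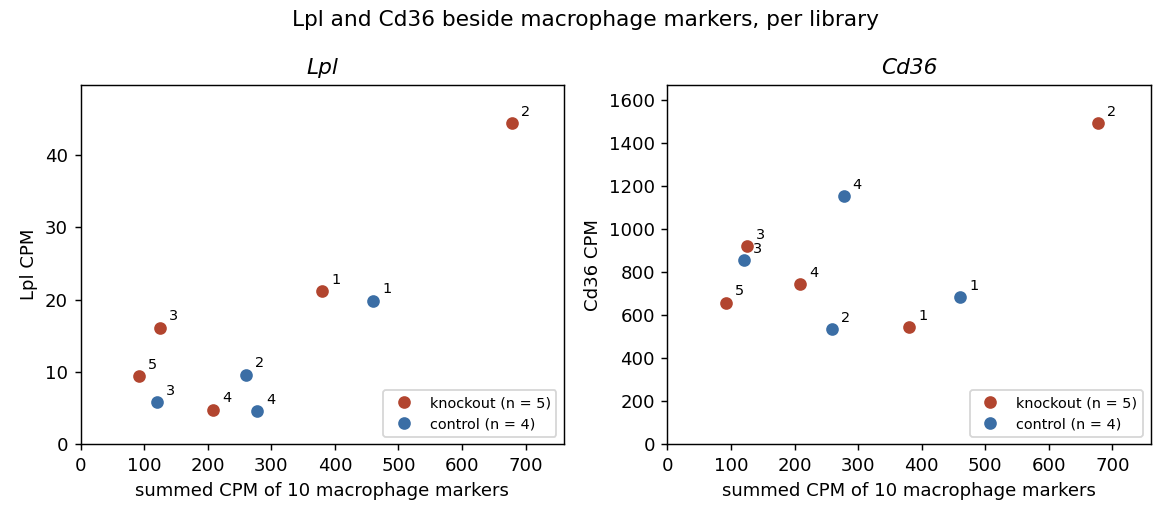
Lpl (left) and Cd36 (right) in CPM against the summed CPM of 10 macrophage markers, 1 point per library, with libraries labelled knockout in red (n = 5) and controls in blue (n = 4). Replicate 2 labelled knockout, at a marker sum of 678 CPM, is highest in both panels, at 44.4 CPM of Lpl and 1490 CPM of Cd36. Control replicate 1, second in the markers at 460 CPM, holds 684 CPM of Cd36, below the 1153 CPM of control replicate 4.

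Hepatic lipase was near the detection limit in both groups. Lipc (ENSMUSG00000032207, GRCm38 chromosome 9, 70798128 to 70952226, minus strand, with 3 other annotated genes inside its span) had 4, 2, 1, 6 and 0 counts in the libraries labelled knockout, against 11, 13, 12 and 4 counts in controls. Pooled over each group this was 0.0832 and 0.312 CPM, a ratio of 0.267 with a counting interval (exact, 95%) from 0.131 to 0.509. An exact two-sided permutation test over the 126 arrangements of the libraries gave p = 0.0476, where the smallest it can give is 0.0159. None of the fits that kept the gene passed the threshold, with adjusted p = 0.0767 in DESeq2 and, in edgeR, 0.134 without a count filter, 0.0606 without control replicate 4 and 0.226 without replicates 2 and 3 labelled knockout. The ranges overlapped, since control replicate 4 lay within the libraries labelled knockout. Lipc is a hepatocyte transcript, and the 8 hepatocyte markers summed to 128, 92.7, 107, 194 and 18.4 CPM in replicates 1 to 5 labelled knockout, against 345, 222, 183 and 152 CPM in control replicates 1 to 4. Of these markers 0 passed the threshold in either direction. Alb held most of each sum, at a mean of 88.3 CPM in the libraries labelled knockout against 186 CPM in controls. Trf went the other way, at 1.03 against 0.674 CPM. Replicate 5 labelled knockout and control replicate 4 were the lowest of their groups in Lipc and in the marker sum. The part of hepatocyte RNA in the Lipc values was not tested.

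Both fatty acid carriers were higher in all 5 libraries labelled knockout than in any control. Fabp4 (ENSMUSG00000062515, GRCm38 chromosome 3, 10204088 to 10208576, minus strand) had 1302, 1824, 1847, 832.5 and 792 CPM in the libraries labelled knockout, against 333, 362, 291 and 279 CPM in controls. It rose 4.17-fold (log2 2.06 ± 0.29, SE, edgeR adjusted p = 7.58e-04). Replicates 2 and 3 were the highest and replicates 4 and 5 the lowest of the libraries labelled knockout. Without replicates 2 and 3 the log2 fold change was 1.63.

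Fabp5 (ENSMUSG00000027533, GRCm38 chromosome 3, 10012548 to 10016607, plus strand) had 315, 406, 795, 165 and 160 CPM in the libraries labelled knockout, against 62.7, 66.0, 64.3 and 59.4 CPM in controls. It rose 5.83-fold (log2 2.54 ± 0.47, SE, edgeR adjusted p = 0.00342), and the SD was 260 CPM in the libraries labelled knockout against 2.80 CPM in controls. The rise was 3.40-fold without replicates 2 and 3 and kept its call (edgeR adjusted p = 9.09e-04). Fabp5 took 30.1% of the pair's summed counts in replicate 3 and between 16.5% and 19.5% in the other 4 libraries labelled knockout, against 15.4% to 18.1% in controls.

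Adipocytes and macrophages also make these carriers. The 6 adipocyte markers were at or near 0, with Adipoq at 1 count in a single library labelled knockout, Cfd at 0 counts in all 9 libraries, and sums of 0.130 to 0.556 CPM in the libraries labelled knockout against 0.0625 to 0.378 CPM in controls. Replicate 5 labelled knockout, whose macrophage marker sum of 91.5 CPM lay below that of every control, held 792 CPM of Fabp4 and 160 CPM of Fabp5, against at most 362 and 66.0 CPM in controls. The part of macrophage RNA in the carrier values was not tested.

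Per kilobase of the longest protein-coding transcript, Fabp4 averaged 1473 ± 571 RPKM in the libraries labelled knockout and 353 ± 42.4 RPKM in controls, and Fabp5 373 ± 264 and 63.9 ± 2.84 RPKM. In the libraries labelled knockout the order of levels was Fabp4, Fabp5, Cd36, Gpihbp1, Lpl, Vldlr, Lipg and Lipc, and in controls it was Gpihbp1, Fabp4, Cd36, Fabp5, Lpl, Lipg, Lipc and Vldlr. The ranges of Fabp5 (162 to 806 RPKM) and Cd36 (160.5 to 438 RPKM) overlapped in the libraries labelled knockout, as did those of Lipg and Lipc there and those of Fabp4 (312 to 404 RPKM) and Cd36 (157 to 339 RPKM) in controls. With the union of all annotated exons as the length, Cd36 stood above Fabp5 in the libraries labelled knockout and above Fabp4 in controls, because retained-intron transcripts lengthen both carrier genes. By the longest protein-coding transcript, Fabp4 lay above 99.9% of the tested genes in the libraries labelled knockout and above 99.3% in controls.

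Around the carrier pair on chromosome 3, 1 of 6 other tested genes passed the threshold, upward. That count is near the 14.5% of all tested genes called higher. Within 500 kb on either side, a stretch chosen after the first results were seen, 6 other genes were tested and 1 of them was higher: Pag1, an adaptor protein of the membrane, averaged 2.32 ± 0.914 CPM in the libraries labelled knockout and 0.743 ± 0.214 CPM in controls (log2 1.64 ± 0.36, SE, edgeR adjusted p = 0.00716). The other 5, Zfp704, Gm9833, Impa1, Zfand1 and Snx16, did not pass the threshold, with log2 fold changes between -0.24 and 0.17. Further carrier genes of the same cluster, Fabp9 and Pmp2, lie between Fabp5 and Fabp4 and had too few counts to be tested. Fabp9 had 57 counts in the libraries labelled knockout and 4 in controls, and Pmp2 had 1 and 0.

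**Figure D3:**
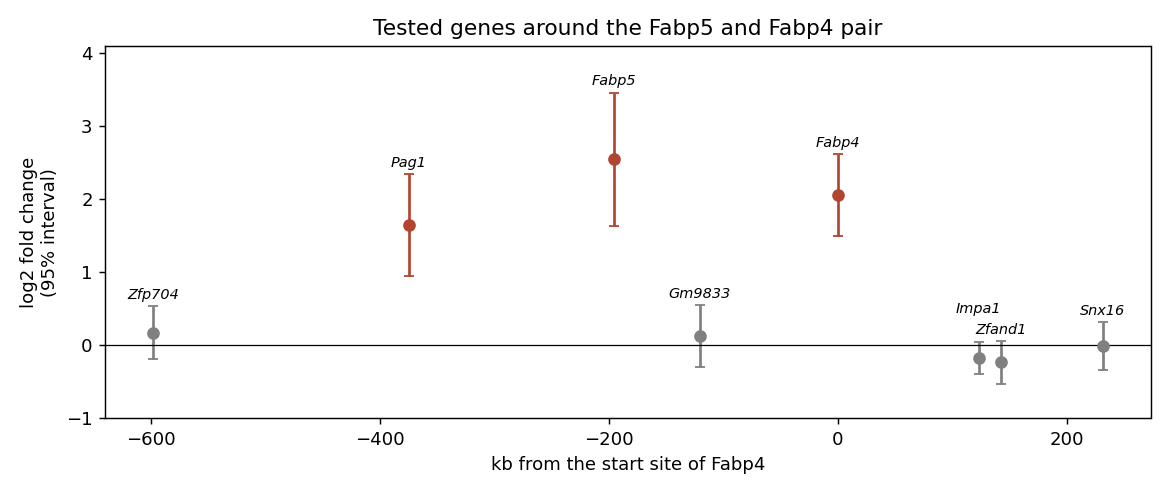
Log2 fold change, libraries labelled knockout over controls, of the 8 tested genes around Fabp4, with 95% intervals, against the distance of each gene's start from that of Fabp4 in kb. Red points passed the threshold. Fabp5, at -196 kb, and Fabp4 stand at 2.54 and 2.06, Pag1 at 1.64, and the other 5 genes near 0.

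The membrane translocase was abundant and differed by less than the spread between libraries. Cd36 (ENSMUSG00000002944, GRCm38 chromosome 5, 17781690 to 17888801, minus strand) had 545.5, 1490, 919, 744 and 658 CPM in the libraries labelled knockout, against 684, 533.5, 853 and 1153 CPM in controls. The log2 fold change was 0.11 ± 0.31 (SE), with a 95% interval from -0.50 to 0.73 and edgeR adjusted p = 0.821. It turned to -0.17 without replicate 2 labelled knockout and to -0.05 without control replicate 2. Platelets carry CD36, and 4 of 5 tested platelet and megakaryocyte markers were higher in the libraries labelled knockout and 0 lower. Over all tested genes 14.5% were higher. Of these markers, Gp9 passed the count filter only through the libraries labelled knockout, the group where it was higher. The call of Ppbp (edgeR adjusted p = 0.0410) ended without control replicate 1, 2 or 4, at 0.0958 to 0.109. It also ended without replicate 2 (0.0765) or 3 (0.0772) labelled knockout. The list summed to between 67.2 and 138 CPM in the libraries labelled knockout and to between 26.6 and 40.2 CPM in controls. The platelet chemokine Pf4 lay at 24.8 ± 3.18 and 2.76 ± 0.642 CPM. The part of platelet or macrophage RNA in the Cd36 values was not tested.

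The lipoprotein receptor transcript appeared mainly in 2 libraries. Vldlr (ENSMUSG00000024924, GRCm38 chromosome 19, 27216484 to 27254231, plus strand) had 2, 87, 177, 6 and 8 counts in replicates 1 to 5 labelled knockout, against 0, 0, 3 and 0 counts in control replicates 1 to 4. Replicates 2 and 3 stood far above the rest, and replicate 1, at 0.0706 CPM, lay below control replicate 3, at 0.0945 CPM. Pooled over each group the levels were 1.79 and 0.0234 CPM, a ratio of 76.5 with an exact 95% counting interval from 25.9 to 373. Without replicates 2 and 3 the 16 counts left gave a ratio of 8.001 (counting interval 2.29 to 42.9). An exact two-sided permutation test over the libraries gave p = 0.0317. The fits that kept the gene differed, with adjusted p = 0.00262 in DESeq2 and 0.0718 in edgeR without a count filter.

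The 250 bases before the first annotated start of Vldlr are shown because Vldlr had 280 counts in the libraries labelled knockout, against 3 in controls. Erg and Fli1 are ETS factors, whose sites hold a GGAA core, so the 6-letter words AGGAAG and CGGAAG were searched on both strands, and these words do not overlap each other here. The window at chr19:27216234-27216483 (RefSeq, GRCm38.p6, plus strand) held 1 match, in capitals, the reverse complement of AGGAAG.
Vldlr: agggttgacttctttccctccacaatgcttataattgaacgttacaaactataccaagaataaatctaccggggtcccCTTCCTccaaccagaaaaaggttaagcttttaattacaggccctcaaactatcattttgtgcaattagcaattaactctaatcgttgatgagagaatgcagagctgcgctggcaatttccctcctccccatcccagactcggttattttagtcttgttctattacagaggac
Either word occurred in 39.2% of the 32851 start windows of this length, AGGAAG in 29.5% and CGGAAG in 13.6%. A second Vldlr window and the Cd36 window held neither word, and each of the 2 Lipc windows held 1. The bases just after the Cd36 window occurred in 0 GENCODE M21 transcripts of Cd36, so that start was not found in this annotation. RefSeq windows were matched by symbol for 3 of the 8 members.

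The wider pathway was read from 88 other genes in 6 lists, chosen with earlier results of these data known. Of the 74 tested, 13 were higher (17.6%), 15 lower (20.3%) and 46 not past the threshold, near the shares of all tested genes. Their median log2 fold change was -0.14, against 0.01 over all tested genes.

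Among 13 tested regulators of lipoprotein lipase, 2 were higher, 2 lower and 9 not past the threshold. Angptl4, which unfolds and inactivates the enzyme, had 24.98, 68.3, 34.6, 38.9 and 16.4 CPM in the libraries labelled knockout, against 2.39, 2.31, 2.11 and 2.78 CPM in controls. Its lowest library labelled knockout stood well above the highest control, a 15.3-fold rise (log2 3.93 ± 0.41, SE, edgeR adjusted p = 1.72e-04). Furin, a protease that cleaves ANGPTL4 and the lipases, averaged 313 ± 14.9 CPM against 161 ± 15.1 CPM (log2 0.96 ± 0.08, SE). Hspg2, the heparan sulphate proteoglycan perlecan, fell to 1480 ± 218 CPM, against 2518 ± 134 CPM in controls, and Lmf2, a relative of the lipase maturation factor, to 116 ± 15.2 CPM, against 172 ± 8.26 CPM. Lmf1, which lipases need to fold, lay at 27.3 ± 1.92 and 27.4 ± 1.28 CPM.

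Of 10 tested genes of lipid droplets and intracellular lipolysis, 2 were higher, 2 lower and 6 not past the threshold. Plin2, which coats lipid droplets, rose to 289 ± 37.5 CPM in the libraries labelled knockout, against 145 ± 13.2 CPM in controls (log2 0.997 ± 0.11, SE, edgeR adjusted p = 2.37e-04). Its relative Plin3 rose by 0.20 on the log2 scale. Abhd5, the coactivator of adipose triglyceride lipase, fell by 0.54, and Mgll, the monoacylglycerol lipase, fell by 0.80 on the same scale. The call of Plin3 (edgeR adjusted p = 0.0436) ended when any single library but replicate 4 labelled knockout was left out, at 0.0584 to 0.106. That of Mgll (edgeR adjusted p = 0.0203) ended without control replicate 1, 2 or 3, at 0.0518 to 0.0579. Hilpda, an inhibitor of adipose triglyceride lipase, held 159 and 115 CPM in replicates 2 and 3 labelled knockout and 6.71 to 9.53 CPM in the other 3, against 8.02 to 9.19 CPM in controls (edgeR adjusted p = 0.0637, DESeq2 0.0178). It passed in edgeR without replicate 1, 4 or 5 labelled knockout, at adjusted p between 0.0358 and 0.0448.

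Of 13 tested carriers and activating enzymes of fatty acids, 1 was higher, 1 lower and 11 not past the threshold. Acsl4, which activates polyunsaturated fatty acids, rose to 54.5 ± 7.70 CPM, against 36.4 ± 4.67 CPM in controls. Acsl1, which activates long-chain fatty acids, fell to 16.8 ± 2.15 CPM, against 24.5 ± 1.02 CPM. The fatty acid transporter Slc27a4 lay at 30.8 ± 3.92 and 33.5 ± 3.19 CPM (edgeR adjusted p = 0.436). Caveolin, Cav1, averaged 35.4 ± 14.4 CPM against 63.5 ± 14.7 CPM (adjusted p = 0.0555 in edgeR, 0.0184 in DESeq2 and 0.0427 in limma-voom). It passed in edgeR without replicate 2 labelled knockout (adjusted p = 0.0166) or control replicate 4 (0.0397). The heart carrier Fabp3 had 0 counts in every library.

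Of 13 tested lipoprotein receptors and their partners, 3 were higher, 4 lower and 6 not past the threshold. Mylip, a ubiquitin ligase that targets VLDLR for degradation, rose to 685 ± 187 CPM, against 434 ± 53.5 CPM, with overlapping groups. Sorl1, a sorting receptor, rose to 2.30 ± 0.665 CPM, against 0.824 ± 0.220 CPM, and Lrp5, a Wnt co-receptor, fell to 438.5 ± 34.6 CPM, against 589 ± 65.1 CPM. Lrp8, the other reelin receptor, fell to 0.270 ± 0.221 CPM, against 0.868 ± 0.201 CPM. It had 4, 19, 16, 2 and 4 counts in the libraries labelled knockout, against 27, 21, 36 and 27 in controls. It passed the count filter mainly through the controls, the group where it was higher, so its being tested leaned on that difference. Its fall was 7.17-fold without replicates 2 and 3 labelled knockout, which left 4, 2 and 4 counts, against 3.106-fold with all libraries. Sort1, a related sorting receptor, fell to 74.4 ± 12.1 CPM, against 111 ± 32.1 CPM. The calls of Mylip, Lrp8 and Sort1 (edgeR adjusted p = 0.0342, 0.0388 and 0.0422) ended without replicate 1, 4 or 5 labelled knockout and without control replicate 3 or 4, and those of Mylip and Lrp8 also without control replicate 1 or 2, at adjusted p up to 0.102.

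Among 16 tested transcriptional and growth factor regulators, 3 were higher, 5 lower and 8 not past the threshold. Ppard, a nuclear receptor that senses fatty acids, rose to 103 ± 10.54 CPM, against 59.1 ± 2.66 CPM in controls (log2 0.79 ± 0.08, SE, edgeR adjusted p = 1.77e-04). Its relative Pparg averaged 11.7 ± 4.20 CPM against 15.8 ± 2.55 CPM and did not pass the threshold (edgeR adjusted p = 0.212). Flt1, a receptor of VEGF-B, fell to 444 ± 58.6 CPM, against 1288 ± 105 CPM, and Vegfb itself to 24.8 ± 2.69 CPM, against 38.4 ± 3.71 CPM. The insulin-responsive factor Foxo1 fell to 89.5 ± 9.03 CPM, against 147 ± 11.99 CPM. The sterol regulators split, with Srebf1 at 129 ± 6.29 CPM against 87.5 ± 9.63 CPM, a rise, and Srebf2 at 63.5 ± 12.2 CPM against 99.6 ± 13.6 CPM, a fall. Ppargc1b, a coactivator of oxidative genes, fell to 1.81 ± 0.773 CPM, against 4.49 ± 0.473 CPM. Aplnr, the apelin receptor, had 23.5, 9.07, 54.5, 1.33 and 1.14 CPM in the libraries labelled knockout, against 0.818 to 2.19 CPM in controls, with overlapping groups. Its call (edgeR adjusted p = 0.0311) ended without any 1 control or without replicate 1 or 3 labelled knockout, at 0.0514 to 0.0853, and in limma-voom (0.239). Its rise was 7.28-fold without replicate 3 labelled knockout, against 14.9-fold with all libraries. Of the 9 fatty acid oxidation genes, Hadha and Hadhb, the subunits of the trifunctional protein, rose by 0.33 and 0.41 on the log2 scale, the dehydrogenase Acadm fell by 0.33, and 6 did not pass.

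**Figure D4:**
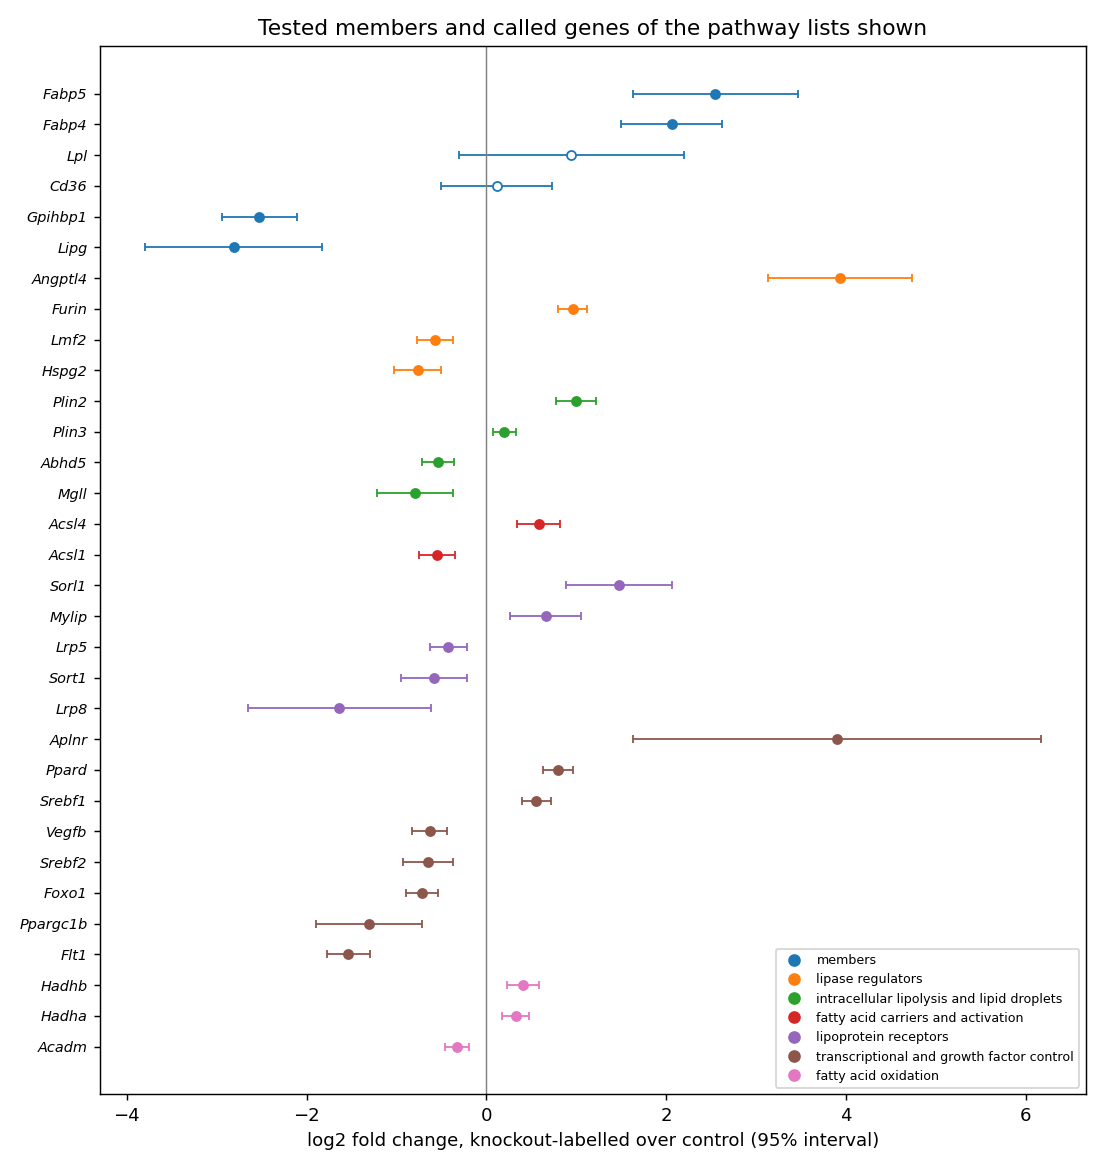
Log2 fold changes, libraries labelled knockout over controls, with 95% intervals, for the 6 tested members and 26 of the 28 called genes of the 6 pathway lists, coloured by list. Filled points passed the threshold and the 2 open points, Lpl and Cd36, did not. Angptl4 stands at 3.93, with Aplnr at 3.90 on a wide interval, and Lipg is lowest at -2.81.

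The genes whose pattern over the 9 libraries was most like each tested member's were taken from protein-coding genes with a mean of at least 10 CPM. Likeness was the root-mean-square difference of log2 CPM after each gene's mean was removed, a description with no test, and most of it follows the difference between groups. For Gpihbp1 it was 0.24 with Fam19a3, 0.34 with Mfng, a glycosyltransferase of Notch receptors, and 0.35 with Fam171a2, beside an SD of 1.40 for Gpihbp1 itself. For Lipg it was 0.34 to 0.48 with the Notch ligand Dll1, the metal transporter Slc39a8 and Susd1. Lipg itself lay far below 10 CPM. It had 2 to 12 counts in the libraries labelled knockout, so the prior count of 2 added before the log weighs on its values there. Fabp4 was closest to Cfap43 (0.21), Nt5dc2 (0.23) and the actin-binding drebrin gene Dbn1 (0.25). Fabp5 was closest to Odc1, which starts polyamine synthesis (0.24), Nt5dc2 (0.25) and Disp2 (0.27), so Nt5dc2 was among the 3 closest to both carriers. Lpl was closest to Ier3, Lrp1 and Dusp5, at 0.54 to 0.59, beside its own SD of 1.11. Cd36 was closest to the mitochondrially encoded mt-Cytb (0.24) and mt-Nd1 (0.25) and to Bcr (0.25), beside its own SD of 0.49.

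**Figure D5:**
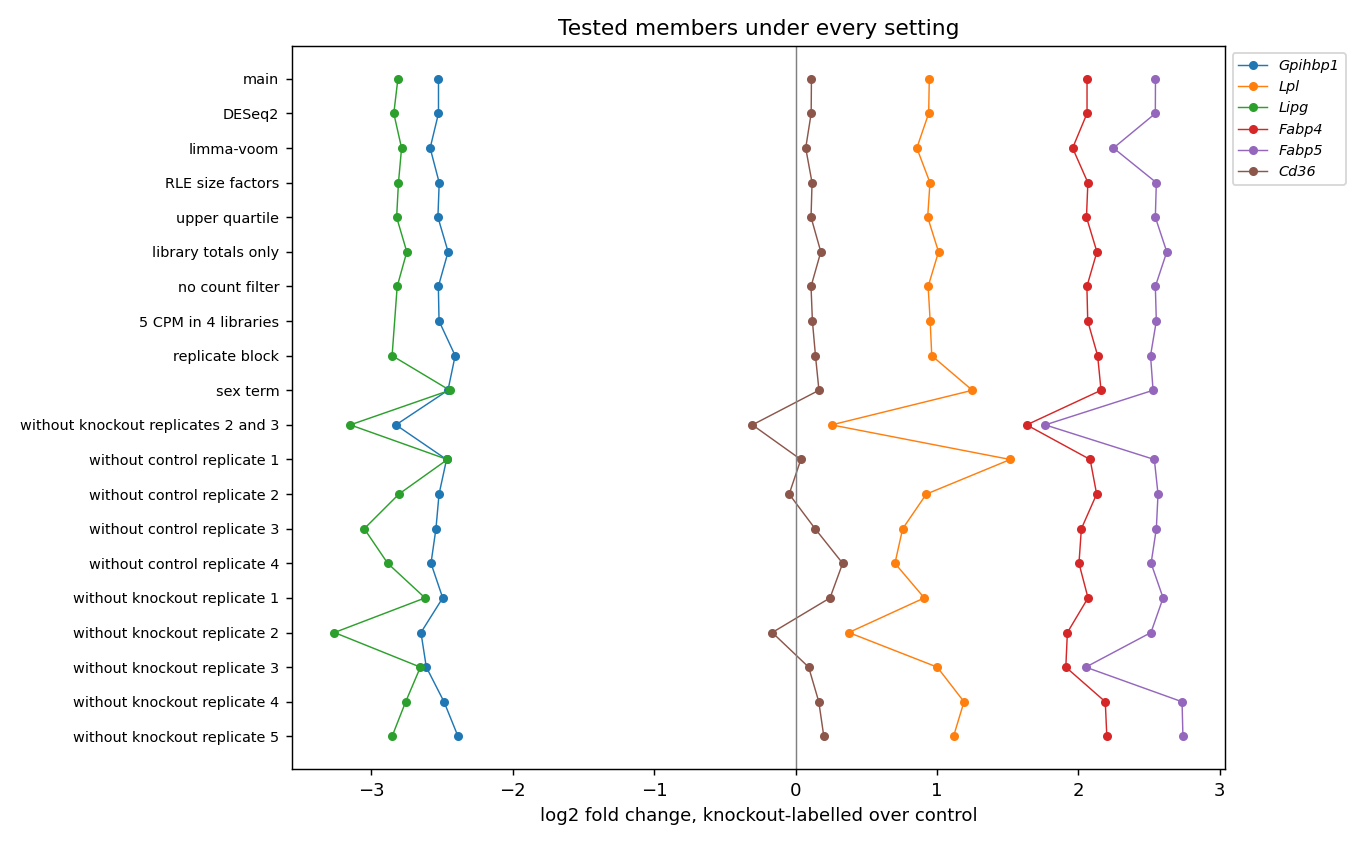
Log2 fold changes of the 6 tested members as reported (top row, main) and under 19 alternative settings, each line joining 1 gene. Gpihbp1 and Lipg stay below 0 and Fabp4, Fabp5 and Lpl above 0 in every setting that gave a value, while Cd36 crosses 0.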

How the data were processed

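Raw counts for each Ensembl gene and library were deposited as a single table. The submitters' processing notes name STAR 2.7.6a, FastQC 0.11.5 and the genome build GRCm38. The sources used here name no counting program, annotation or strand setting. Per the labels' protocols, polyadenylated RNA was made into libraries with an unstranded or a stranded kit, and which library had which cannot be told.

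Columns were matched to samples by description and groups taken from titles, with 0 columns unused. Symbols and coordinates came from GENCODE M21 (GRCm38), which named 52489 of 52636 identifiers. Genes were filtered with filterByExpr (minimum count 10, total 15), leaving 14583, scaled by TMM and compared in R 4.3.3 with edgeR 4.0.16 (robust glmQLFit, then glmQLFTest, no covariate, threshold 0.05). The SE is the log2 fold change over the square root of F, and 95% intervals are normal ones. Counting intervals cover counting error only, since PCR copies were not marked by molecular identifiers. No library was a copy of another of its group: the chi-square of their counts, divided by its degrees of freedom, was at least 20.3. Nothing in the labels says that libraries came from separate animals, so p-values measure the spread between these libraries, which may be partly technical. The fit was tested on simulated data.

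The members, gene lists and tests were chosen with earlier results of these data known. Named genes were all 8 members, up to 5 called genes per pathway list with the smallest p, the 3 most alike genes per member, Erg, Fli1, Cdh5 and Pecam1; Lrp8, Sort1, Srebf2, Ppargc1b, Aplnr, single markers, genes not past the threshold and the chromosome 3 neighbours were named after their values were seen. The counts include 2 called pathway genes that are not reported here by name. The CD31 gene Pecam1 averaged 1408 ± 164 CPM in the libraries labelled knockout against 1482 ± 97.9 CPM in controls. Alternatives were DESeq2 1.42.0, limma-voom (limma 3.58.1), 3 scalings, 2 filters, a replicate block, a sex term and libraries left out.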

Additional observations from a re-analysis of the deposited data

Results flagged for a closer look

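Each member's CPM was examined within each group for a library far from the others, in 16 groups, where chance alone would single out about 1 group in 20. There were 2 such libraries. Lipc in control replicate 4 lay at 0.118 CPM, below the 0.360 to 0.406 CPM of the other 3 controls; the same library was lowest of the controls in summed hepatocyte markers, at 152 CPM. Vldlr in control replicate 3 lay at 0.0945 CPM, which is 3 counts, where the other 3 controls had 0 counts. Beside such zeros any count in the remaining control would have been flagged, so the chance rate does not apply to Vldlr there.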

How the results depend on the processing

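Under 19 alternatives the calls of Gpihbp1 (log2 fold change -2.83 to -2.39), Fabp4 (1.63 to 2.20) and Fabp5 (1.77 to 2.74) held, as did that of Lipg (-3.26 to -2.45) under the 18 that kept it; Lpl (0.25 to 1.52) and Cd36 passed the threshold under none. A filter of 5 CPM in 4 libraries removed Lipg, which left 1 member called lower in place of 2. Cd36 turned to -0.31 without replicates 2 and 3 labelled knockout; leaving out single libraries gave -0.17 to 0.33. Genes called numbered 4271 and between 3086 and 3999 with 1 library left out. With the replicate number as a block there were 2671 (1296 higher, 1375 lower), with the same 4 members called. Deviations of same-numbered libraries from their group means correlated across genes at -0.33 to 0.29. These correlations cannot decide whether the numbers pair the libraries, since libraries of different numbers were not compared. The deposited column names carry their own numbers, none of them shared between the groups, and so give no pairs. Pathway genes called were 10 to 15 higher and 11 to 21 lower over all alternatives, and 12 higher and 20 lower without replicates 2 and 3 labelled knockout. Read from Xist and Ddx3y, 2 of 5 libraries labelled knockout and 3 of 4 controls were male; in males Gpihbp1 lay at 143 to 207 against 796 to 1000 CPM and Fabp4 at 1302 to 1824 against 279 to 362 CPM, and females held 1 control. Depth limits Lipc, Vldlr, Lipg and the pathway gene Lrp8, where 3 counts are worth 0.0780 to 0.1105 CPM.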
